A study of Mus musculus with 8 samples.

Results

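Neutrophil granule and calprotectin genes were followed in bone marrow-derived macrophages (BMDM) treated with sphingosine d18:1, written So(d18:1), or with its vehicle. The 10 genes were Mpo, Elane, Prtn3 and Ctsg for primary granules, Ltf, Camp, Ngp and Lcn2 for secondary granules, and S100a8 and S100a9 for calprotectin. They were 10 of the 55357 genes listed in the count table, and all 10 were among the 14514 genes with enough counts to be tested. The genes were named by their known roles, but they were also chosen on the measured difference between So(d18:1) and Control, which was already known for these libraries. Their differences between the groups are therefore given as a description. No p is given for any of the 10 genes, and counts of those past a threshold are not read as support.

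BMDM are macrophages grown in culture from bone marrow. The marrow came from wild-type C57BL/6J mice and was grown for 5 to 6 days in medium with M-CSF, the growth factor of macrophages, at 10 ng/ml. The 4 Control libraries came from cells given methanol for 6 h, and the 4 So(d18:1) libraries from cells given 2 μM sphingosine in methanol for 6 h. No allele was altered in either group. The sample labels name no inflammatory stimulus for either group, whereas the text of the study places this experiment under inflammatory stimulation. The labels do not say whether the libraries came from different mice. A figure legend of the study gives 4 biologically independent samples for this experiment, but does not say that they were different mice. Every adjusted p below therefore measures only the spread between these libraries. Messenger RNA with a poly(A) tail was sequenced, and the bulk RNA of each culture was read as a whole.

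Neutrophils carry their weapons in granules that fill in sequence as the cell matures in the marrow. Primary (azurophil) granules fill first, at the promyelocyte stage, with myeloperoxidase and serine proteases. Secondary (specific) granules fill later, at the myelocyte stage, with lactoferrin, cathelicidin and other antimicrobial proteins. Calprotectin, the S100A8 and S100A9 pair, is a calcium-binding and metal-binding complex of the cytosol rather than of granules, and is abundant in neutrophils and monocytes. Mature macrophages make little of most granule proteins, whereas early progenitors transcribe the primary granule genes strongly. C/EBP factors, PU.1 and MYB are the factors best known for driving these genes during granulocyte development.

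Promoter sequence was taken from RefSeq (GRCm38.p6), which had a window for all 10 genes, and the 250 bases before the start were searched on both strands for 4 motifs. The C/EBP letters TTNCNNAA were in 5 of the 10 windows (Ltf, Ngp, Lcn2, S100a8 and S100a9) and in 36.8% of all 32851 windows of the same length. The PU.1 letters AGAGGAA were in 3 of the 10 (Mpo, Ctsg and S100a8) and in 8.55% of all windows, and the MYB letters AACNGNC in 4 of the 10 (Mpo, Elane, Ctsg and Ngp) and in 27.7% of all. The NF-kB letters GGGNNNTTC followed by C were in 0 of the 10 and in 4.65% of all windows. A form without the last C, tried only after this was known, was in 1 of the 10, S100a9 at 135 bases before the start, and in 11.8% of all windows, and it is not in the capitals below. A match is a description of letters and not a shown binding site. The windows of 2 genes of each class are given 5′ to 3′ with every match in capitals so that the letters can be read across the classes. TTNCNNAA was in no window of the 4 primary granule genes, PU.1 and MYB letters each stood in more than 1 class, and Camp and Prtn3 had no match. No test was made of these counts.
Elane: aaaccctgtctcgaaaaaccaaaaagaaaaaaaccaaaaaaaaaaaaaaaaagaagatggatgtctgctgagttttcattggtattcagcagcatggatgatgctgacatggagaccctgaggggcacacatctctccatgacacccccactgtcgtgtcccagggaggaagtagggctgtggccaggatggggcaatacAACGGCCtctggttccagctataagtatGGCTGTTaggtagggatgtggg
Ctsg: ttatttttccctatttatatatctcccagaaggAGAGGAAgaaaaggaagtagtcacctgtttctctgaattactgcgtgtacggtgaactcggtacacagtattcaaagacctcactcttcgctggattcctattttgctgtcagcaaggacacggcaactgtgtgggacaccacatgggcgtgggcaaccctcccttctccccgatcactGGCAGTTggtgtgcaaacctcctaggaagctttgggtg
Ltf: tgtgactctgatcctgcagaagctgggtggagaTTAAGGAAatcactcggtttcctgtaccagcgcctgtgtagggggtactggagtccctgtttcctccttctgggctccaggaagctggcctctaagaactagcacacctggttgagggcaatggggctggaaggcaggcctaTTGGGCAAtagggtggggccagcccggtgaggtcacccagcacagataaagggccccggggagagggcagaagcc
Ngp: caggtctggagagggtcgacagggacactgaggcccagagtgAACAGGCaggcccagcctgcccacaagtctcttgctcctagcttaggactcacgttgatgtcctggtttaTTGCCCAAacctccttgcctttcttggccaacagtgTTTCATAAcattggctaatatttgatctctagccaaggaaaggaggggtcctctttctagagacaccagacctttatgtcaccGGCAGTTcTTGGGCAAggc
S100a8: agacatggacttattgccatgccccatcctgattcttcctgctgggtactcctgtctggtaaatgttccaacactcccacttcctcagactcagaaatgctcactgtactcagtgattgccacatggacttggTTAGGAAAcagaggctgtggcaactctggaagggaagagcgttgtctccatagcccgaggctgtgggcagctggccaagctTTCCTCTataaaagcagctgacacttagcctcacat
S100a9: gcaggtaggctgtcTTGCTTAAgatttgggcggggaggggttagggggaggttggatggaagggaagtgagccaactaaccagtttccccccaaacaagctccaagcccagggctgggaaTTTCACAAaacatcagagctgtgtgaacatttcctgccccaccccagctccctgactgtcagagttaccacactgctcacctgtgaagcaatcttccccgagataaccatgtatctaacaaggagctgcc

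These stretches lie at chr10:79886062-79886311 on the + strand, chr14:56102575-56102824 on the - strand, chr9:111019042-111019291 on the + strand, chr9:110419558-110419807 on the + strand, chr3:90668821-90669070 on the + strand and chr3:90695722-90695971 on the - strand. Elane has MYB letters 50 and 22 bases before the start, and Ctsg has PU.1 letters at 217 and MYB letters at 38 bases. Ngp has the most matches of the 10 genes, with C/EBP letters at 138, 102 and 11 bases and MYB letters at 208 and 19 bases. In Ltf the C/EBP letters begin 217 and 75 bases before the start and in S100a9 236 and 130 bases, while S100a8 has C/EBP letters at 117 and PU.1 letters at 36 bases. The letters in capitals do not overlap in the windows shown, whereas the shorter NF-kB form overlaps the C/EBP letters of S100a9 at 130 bases. The GENCODE gene starts 0 to 93 bases before the RefSeq start in these 6 genes, and 5191 bases before it in Prtn3.

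Library totals lay between 17748397 and 26088609 counts, with no difference between the groups beyond their spread (two-sided exact permutation test, p = 0.314, smallest possible p = 0.0286). Of all genes tested, 8.94% had an adjusted p under 0.05 in either direction (edgeR's quasi-likelihood test with Benjamini-Hochberg adjustment), 5.07% being lower with So(d18:1) and 3.87% higher. The median log2 fold change over all genes tested was 0.0036. The macrophage markers Csf1r (the M-CSF receptor) and Adgre1 (F4/80) were high in every library, at 6084 to 6298 and 2140 to 2262 CPM (counts scaled to a common library size) in Control and at 5564 to 6270 and 2127 to 2309 CPM in So(d18:1).

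All 10 genes had a lower mean with So(d18:1), by 24.9% to 36.9%. Summed over the 10 genes, Control libraries held 2091 ± 328 CPM (SD, n = 4) and So(d18:1) libraries 1530 ± 95.0 CPM (SD, n = 4), a log2 ratio of -0.45. In 9 of the 10 genes every So(d18:1) library lay below every Control library, a pattern that 7.87% of all genes tested had. By adjusted p under 0.05, 6 of the 10 genes were called lower, beside 5.07% of all genes. By the threshold in the study's methods, an unadjusted p under 0.05 with a fold change of at least 1.5, only Ctsg was called, beside 2.48% of all genes called lower. These shares follow from how the genes were chosen and nothing is read from them. In bulk RNA, fewer cells that carry these transcripts and less of the transcripts per cell could not be told apart.

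**Figure D1:**
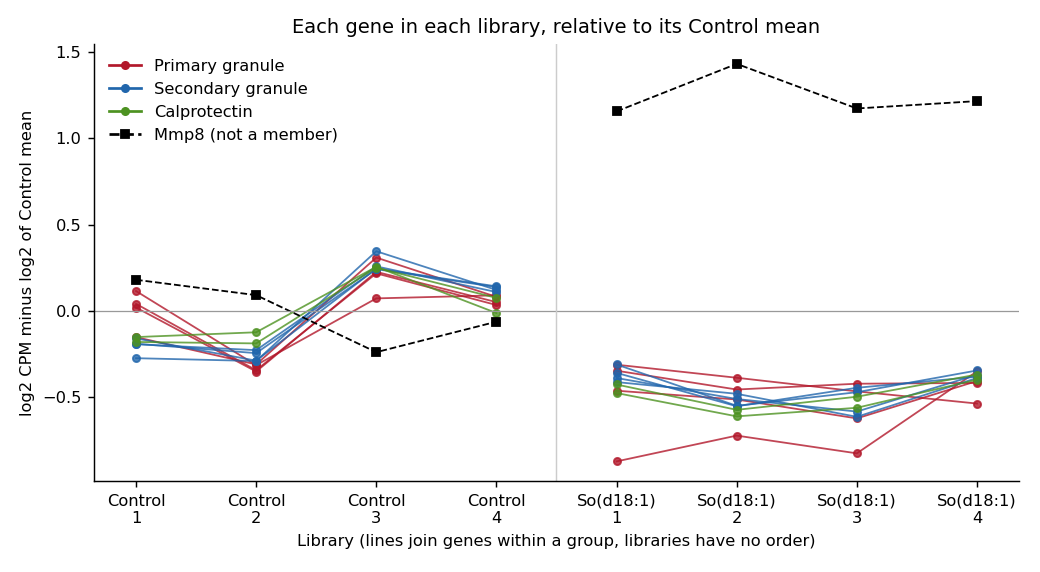
The log2 CPM of each gene in each of the 8 libraries is drawn relative to the log2 of its Control mean, with lines joining the libraries of a group. The 10 granule and calprotectin genes keep close together, highest in Control replicate 3 for 9 of the 10 and below their Control mean in all 4 So(d18:1) libraries, while Mmp8 (black squares) lies above its Control mean in all 4 So(d18:1) libraries.

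Among the primary granule genes, Mpo encodes myeloperoxidase, the enzyme that makes hypochlorous acid. Mpo was counted at 56.5, 43.7, 65.2 and 57.7 CPM in Control replicates 1 to 4 and at 44.9, 42.6, 40.3 and 38.4 CPM in So(d18:1) replicates 1 to 4. It was the one gene of the 10 whose groups overlapped, because Control replicate 2 lay under So(d18:1) replicate 1. Its log2 fold change was -0.43 with a standard error (SE) of 0.108. Exons of Mpo overlap those of Gm11505 on the opposite strand, and 9.46% of its 50-base words occur in other genes. No strand setting is stated, so reads of such overlapping genes could not be told apart. Gm11505 was at 0 counts in all 8 libraries, which does not show how reads in the shared exons were counted.

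Elane encodes neutrophil elastase. Its Control libraries held 23.2, 20.8, 32.0 and 27.3 CPM, and its So(d18:1) libraries held 20.3, 18.8, 19.2 and 19.3 CPM. The groups were separated by only the gap between Control replicate 2 and So(d18:1) replicate 1, and the log2 fold change was -0.41 (SE 0.108). The So(d18:1) libraries were much closer to each other, with a coefficient of variation of 3.21%, than the Control libraries, at 19.0%.

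Prtn3, the gene of proteinase 3, starts the same cluster on chromosome 10 and ends 3073 bases before Elane. It was at 17.4, 13.3, 19.7 and 17.3 CPM in Control and at 12.3, 11.8, 10.97 and 12.8 CPM in So(d18:1), with Control replicate 2 again the lowest Control library. The log2 fold change was -0.50 (SE 0.104). Exons of Prtn3 overlap those of Plppr3 on the opposite strand, and 6.45% of its words are shared with that gene, which was at a mean of 10.9 CPM in Control, so the count of Prtn3 is uncertain.

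Ctsg encodes cathepsin G, the third serine protease of these granules. It was the least counted of the 10 genes, with 166 to 212 counts in the Control libraries and 80 to 166 in those given So(d18:1), and it had the lowest log2 fold change, -0.66 (SE 0.137). In CPM this was 8.89, 6.60, 8.63 and 8.74 in Control and 4.48, 4.97, 4.63 and 6.44 in So(d18:1). The highest So(d18:1) library, replicate 4, came close to the lowest Control library, replicate 2. Over all 14514 genes tested, 2.45% had a lower log2 fold change than Ctsg, and 6.78% had a lower one than Elane, the gene of the 10 with the smallest difference.

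Of the secondary granule genes, Ngp and Ltf were counted far more than any primary granule gene. The Control mean of Camp, 65.9 CPM, was close to that of Mpo, 55.8 CPM, and that of Lcn2 was 118 CPM. Ngp, which encodes neutrophilic granule protein, held 611, 588, 824 and 767 CPM in Control and 562, 476, 502 and 548 CPM in So(d18:1). Ltf, the gene of the iron-binding protein lactoferrin, held 272, 265, 372 and 335 CPM in Control and 242, 212, 228 and 238 CPM in So(d18:1). In both genes Control replicates 1 and 2 lay just above the So(d18:1) libraries and Control replicates 3 and 4 well above them. The log2 fold changes were -0.42 (SE 0.123) for Ngp and -0.43 (SE 0.115) for Ltf.

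Lcn2 encodes lipocalin 2, which binds bacterial siderophores and so withholds iron. It was at 106, 96.8, 140.1 and 130.5 CPM in Control and at 90.2, 82.9, 78.8 and 91.4 CPM in So(d18:1), a log2 fold change of -0.46 (SE 0.125). Camp, the gene of the cathelicidin antimicrobial peptide, was at 54.4, 53.8, 83.7 and 71.6 CPM in Control and at 49.5, 47.2, 43.0 and 50.3 CPM in So(d18:1). Camp had the widest spread of the 10 genes among Control libraries, with a highest level 1.56 times the lowest, and its log2 fold change of -0.47 had the largest standard error, 0.157.

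S100a8 and S100a9 encode the partners of calprotectin and lie 22597 bases apart on chromosome 3. S100a9 was at 437, 434, 589 and 521 CPM in Control and at 368, 332, 350.3 and 383 CPM in So(d18:1). S100a8 was at 267, 272, 354 and 294 CPM in Control and at 213, 194, 201 and 225 CPM in So(d18:1). The groups did not overlap in either gene, and the gap between the lowest Control and the highest So(d18:1) library was wider, relative to the level, than in the granule genes, 434 against 383 CPM for S100a9 and 267 against 225 CPM for S100a8. Their log2 fold changes were -0.47 (SE 0.102) and -0.51 (SE 0.0883), the latter with the smallest standard error of the 10.

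The log2 fold changes of the 10 genes stayed below 0 with each library left out in turn. The number past the threshold moved with single libraries, and the number over all genes moved too. Without So(d18:1) replicate 2, 3 or 4, 3 of the 10 were called, with 815, 1113 and 901 of all genes, and without Control replicate 4 it was 3 with 872. Without Control replicate 2, the lowest Control library for 9 of the 10 genes, 9 were called with 1370 of all genes, whereas with all 8 libraries it was 6 with 1298. Nothing is read from these counts about the 10 genes, which were chosen on the same difference. The biological coefficient of variation of all 10 genes was above the median of the genes tested, 0.0774, from 0.0874 for S100a8 to 0.150 for Camp.

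**Figure D2:**
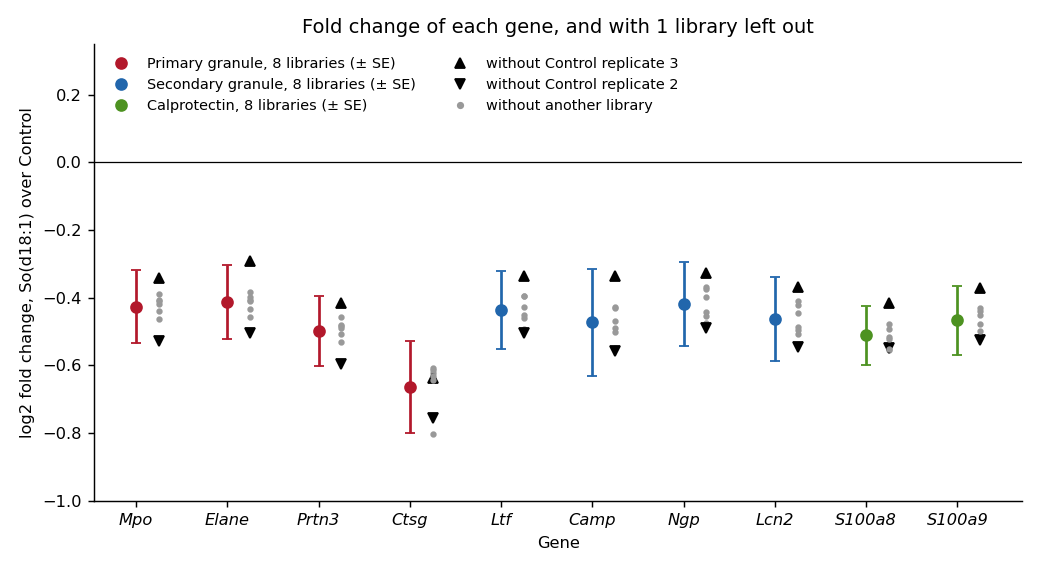
The log2 fold change of each gene with So(d18:1) is drawn with its standard error (coloured), beside its values with 1 library left out. Every value is below 0, the values without Control replicate 3 (upward triangles) are nearest to 0 in all genes but Ctsg, and the values without Control replicate 2 (downward triangles) are among the lowest.

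The spread among Control libraries was shared by the genes. Control replicate 3 was the highest Control library for 9 of the 10 genes and Control replicate 4 the next highest for 9. The coefficients of variation were 13.2% to 21.9% in Control and 3.21% to 17.4% in So(d18:1). On the first principal component of all genes, Control replicates 3 and 4 also lay farther from the So(d18:1) libraries, at -23.4 and -17.1, than Control replicates 1 and 2, at -10.9 and -8.96, while the So(d18:1) libraries lay between 8.74 and 24.3. The part of this axis in the difference between groups was not tested. Without Control replicate 3 the log2 fold changes of the 10 genes ranged from -0.64 for Ctsg to -0.29 for Elane.

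Primary, secondary and calprotectin sums differed between the groups by a similar factor. The primary granule sum was 107 ± 17.02 CPM (SD, n = 4) in Control, against 78.0 ± 2.86 CPM (SD, n = 4) with So(d18:1), a log2 ratio of -0.45. For the secondary granule genes the sums were 1193 ± 202 and 886 ± 60.4 CPM, a log2 ratio of -0.43, and for calprotectin 792 ± 113 and 567 ± 35.5 CPM, a log2 ratio of -0.48. In CPM, which are not scaled for gene length, the primary granule sum was 0.0898 ± 0.0081 of the secondary granule sum in Control and 0.0883 ± 0.0054 in So(d18:1). Single libraries lay between 0.0828 and 0.102, and the groups overlapped. The ratio of the calprotectin sum to the secondary granule sum was 0.667 ± 0.0324 in Control and 0.640 ± 0.0169 in So(d18:1), and these ranges overlapped as well. Both ratios differed between the groups by less than their SD among Control libraries.

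Ratios were also taken between genes of a class. Ltf amounted to between 0.431 and 0.454 of Ngp in all 8 libraries, and Lcn2 to between 0.157 and 0.174 of Ngp, although Ngp itself ranged from 476 to 824 CPM. S100a8 was 0.601 ± 0.0267 of S100a9 in Control and 0.581 ± 0.0060 in So(d18:1). Elane was 0.463 ± 0.0352 of Mpo in Control and 0.469 ± 0.0275 in So(d18:1). Ctsg varied most against Mpo, from 0.0999 to 0.168, and in So(d18:1) this ratio, 0.125 ± 0.0296, spread more relative to its mean than the level of either gene.

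Levels were compared between genes per kilobase of exon, as RPKM. In Control, S100a9 came first at 949 ± 142 RPKM, above 99.8% of the genes tested, followed by Ngp at 571 ± 95.0 and S100a8 at 428 ± 57.6 RPKM (SD, n = 4). Ltf at 90.2 ± 14.9 and Camp at 87.0 ± 19.1 RPKM overlapped library by library and could not be ordered. Lcn2 was at 45.1 ± 7.76 and Elane at 26.2 ± 4.98 RPKM. The other primary granule genes were lowest, Mpo at 16.3 ± 2.61, Prtn3 at 9.77 ± 1.52 and Ctsg at 7.95 ± 1.05 RPKM. The Control ranges of neighbouring genes in this order overlapped for Ngp and S100a8, for Ltf and Camp, and for Prtn3 and Ctsg. Within each Control library, however, Ngp was above S100a8 and Prtn3 above Ctsg. In the other neighbouring pairs the Control ranges were apart. Overlapping exons leave the levels of Mpo and Prtn3 uncertain. So(d18:1) libraries gave the same order of means, from 687 ± 42.0 RPKM for S100a9 to 4.97 ± 0.866 RPKM for Ctsg.

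**Figure D3:**
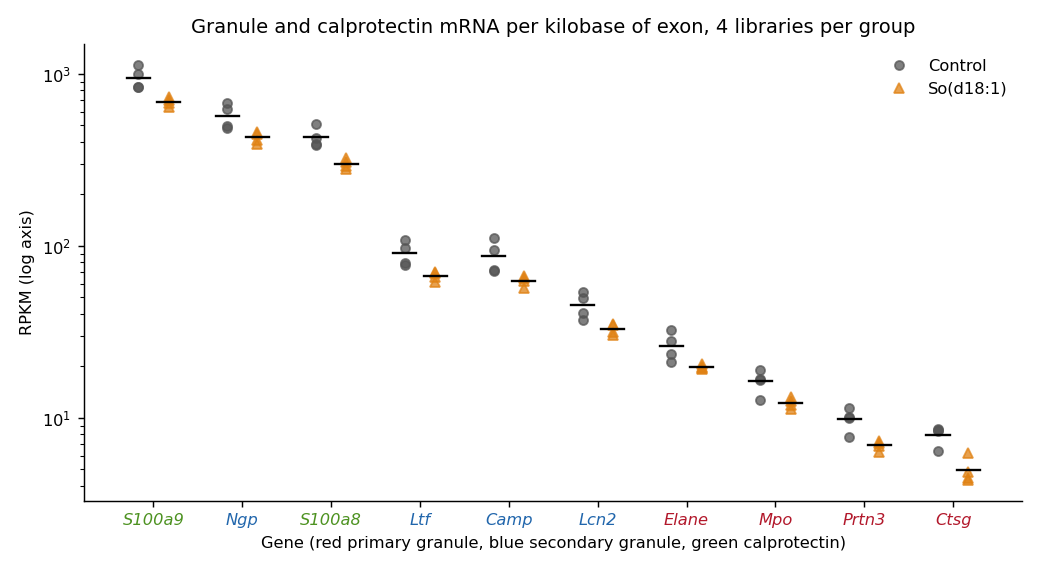
RPKM, the CPM per kilobase of exon, is drawn on a log axis for the 4 Control libraries (circles) and the 4 So(d18:1) libraries (triangles) of each gene, with bars at the means. The genes span from 949 RPKM for S100a9 to 7.95 RPKM for Ctsg in Control, and each So(d18:1) mean lies under its Control mean.

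The profiles over the 8 libraries were compared as the root mean square difference of log2 CPM after each gene was centred on its own mean. Ltf and Ngp had the closest profiles, 0.0257, followed by Ltf and S100a9 at 0.0336 and S100a8 and S100a9 at 0.0473, so the closest pairs crossed from secondary granules to calprotectin. Ctsg was the farthest from the rest, 0.161 from Prtn3 and 0.244 from Elane. Among all other genes tested, Trib1 was the nearest to Ngp (0.0279) and to Ltf (0.0412), Chil3 to S100a9 (0.0380) and S100a8 (0.0605), and Mylip to Lcn2 (0.0528). Itgb2l was the nearest to Elane (0.0526) and Prg2 the nearest to Camp (0.0598). For the other primary granule genes the nearest were Nedd4 to Mpo (0.0671), Cd5l to Prtn3 (0.0574) and Tmem40 to Ctsg (0.0978). Chil3 and Itgb2l encode the chitinase-like protein Ym1 and a neutrophil integrin subunit, and Prg2 encodes eosinophil major basic protein. These distances describe 8 libraries that include the group difference.

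Genes lying beside the members on the chromosomes were counted too. Camp, Ngp and Ltf lie on one stretch of chromosome 9, with 570130 bases between Camp and Ngp and 596259 between Ngp and Ltf. Apart from the members themselves, 100 genes lay within 100 kb of a member, 43 were tested, and 1 was called. This was Cdc25a, a cell cycle phosphatase gene 25962 bases from Camp, with a log2 fold change of -0.27 (SE 0.0778, adjusted p = 0.0346). The log2 fold changes of the 43 genes had a median of 0.028. Beside S100a8, the neighbour S100a6 had a log2 fold change of 0.40 (SE 0.162, adjusted p = 0.202) and S100a4 one of 0.65 (SE 0.280, adjusted p = 0.166), opposite in sign to calprotectin, and neither passed the test.

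Other primary granule genes were a list of 15 written from textbook content, of which 14 were tested. In this list 5 genes fell and none rose, and 9 did not pass the test, with a median log2 fold change of -0.070. Ms4a3, a marker of granulocyte and macrophage progenitors, fell from 5.92 ± 0.272 to 3.72 ± 0.314 CPM, a log2 fold change of -0.67 (adjusted p = 0.00178). Ctsc, whose product cathepsin C activates the serine proteases of these granules, fell from 794 ± 32.2 to 626 ± 9.44 CPM (log2 fold change -0.34, adjusted p = 1.2e-05). Serpinb1a, an inhibitor of those proteases, fell by 0.55 on the log2 scale (adjusted p = 5.6e-04). The most abundant gene of the list, the lysosomal membrane gene Lamp1, had a log2 fold change of 0.014 (adjusted p = 0.882), and Bpi was at 0 counts in all 8 libraries. Nkg7, a membrane protein of cytotoxic granules, also fell and had a log2 fold change of -0.83 (adjusted p = 0.0426). Leaving out single libraries gave 4 or 5 calls.

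Secondary granule genes outside the 10 went in both directions. Of 19 genes listed, 18 were tested, 4 fell, 1 rose and 13 did not pass, and the median log2 fold change was -0.19. The gene that rose was Mmp8, neutrophil collagenase, which held 67.0, 63.0, 50.1 and 56.6 CPM in Control and 132, 160, 133 and 137 CPM in So(d18:1). Its log2 fold change was 1.25 (SE 0.0914, adjusted p = 1.2e-05), and every So(d18:1) library lay above every Control library. Mmp8 was lowest in Control replicate 3, where 9 of the 10 granule and calprotectin genes were highest in Control. No 50-base word of Mmp8 occurred in another gene.

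Among those that fell, Itgb2l went from 18.2 ± 3.34 to 13.02 ± 0.733 CPM (log2 fold change -0.49, adjusted p = 0.00743) and Chil3 from 326 ± 49.3 to 233 ± 14.01 CPM (log2 fold change -0.49, adjusted p = 0.0244). Anxa3, a calcium-dependent phospholipid-binding protein, fell by 0.23 on the log2 scale (adjusted p = 0.00246). Hp, haptoglobin, the fourth gene that fell, had a log2 fold change of -0.31 (adjusted p = 0.0269). Lyz2, the lysozyme gene that macrophages also express strongly, was the highest of the list and had a log2 fold change of -0.14 (adjusted p = 0.118). The number called ranged from 3, without Control replicate 4 or So(d18:1) replicate 2 or 3, to 8, without Control replicate 2. Chil3 was not called without Control replicate 4 (adjusted p = 0.0683) or without any single So(d18:1) library (adjusted p = 0.0509 to 0.0658).

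Of 11 tertiary granule and secretory vesicle genes tested, 1 rose, 1 fell and 9 did not pass, with a median log2 fold change of -0.10. Itgam, the CD11b integrin subunit, rose from 420 ± 20.3 to 477 ± 17.8 CPM (log2 fold change 0.18, adjusted p = 0.0119), and Lilrb4a, an inhibitory receptor, fell by 0.20 on the log2 scale (adjusted p = 0.0457). Without So(d18:1) replicate 2 neither was called, at adjusted p = 0.0556 for Itgam and 0.0995 for Lilrb4a. Lilrb4a was also not called without Control replicate 1, 2, 3 or 4 or So(d18:1) replicate 4 (adjusted p = 0.066 to 0.103). Cd14, the most abundant gene of the list, had a log2 fold change of 0.022 (adjusted p = 0.842), and Stfa1 and Stfa3 were at 0 counts in all 8 libraries.

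Among genes typical of mature neutrophils, those called were likewise divided, 3 of 16 higher and 3 lower, while 10 did not pass. The median log2 fold change was -0.19, and 9 of the 16 lay below 0. Clec4e and Clec4d, which rose, also stand in the list of inflammatory genes. Csf3r, the G-CSF receptor, fell from 358 ± 14.2 to 294 ± 28.0 CPM (adjusted p = 0.00362), and Padi4, the enzyme that citrullinates histones, fell from 35.1 ± 3.20 to 26.5 ± 1.09 CPM (adjusted p = 6.1e-04). Clec4e, which encodes the lectin receptor Mincle, rose from 90.8 ± 4.32 to 119 ± 3.77 CPM (adjusted p = 8.2e-06), and Mxd1, a partner of MAX that opposes MYC, from 50.2 ± 2.43 to 60.3 ± 2.05 CPM (adjusted p = 0.00213). Clec4d, the highest gene of the list, rose by 0.25 on the log2 scale (adjusted p = 0.00959). Cxcr2, the chemokine receptor of circulating neutrophils, was the third gene that fell, from 6.56 ± 0.732 to 4.27 ± 0.542 CPM (adjusted p = 0.00484). Leaving out single libraries gave 6 or 7 calls.

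Regulators of granulocyte development were tested for 19 genes, of which 2 rose and 3 fell, with a median log2 fold change of -0.059. Runx1 rose from 129 ± 5.75 to 180 ± 7.65 CPM (log2 fold change 0.48, adjusted p = 5.6e-07) and Cebpd by 0.24 on the log2 scale (adjusted p = 0.025). Myc and Myb, which keep progenitors dividing, had log2 fold changes of -0.81 (adjusted p = 0.0165) and -0.55 (adjusted p = 0.0222) and both fell. Both lie at low levels, with Control means of 4.70 ± 1.44 CPM for Myc and 10.5 ± 1.05 CPM for Myb. Csf1r was the highest gene of the list and had a log2 fold change of -0.059 (adjusted p = 0.464). The third gene that fell was Cebpe (log2 fold change -0.38, adjusted p = 0.0358), the regulator of the secondary granule program, with 8.39 to 10.8 CPM in Control and 6.95 to 7.44 CPM in So(d18:1). Single libraries mattered here. The number called ranged from 1, without So(d18:1) replicate 2, to 6, without Control replicate 2, and it was 2 without So(d18:1) replicate 1. Myc was not called without Control replicate 3 (log2 fold change -0.58, adjusted p = 0.0606) or without So(d18:1) replicate 1 (adjusted p = 0.0504) or 2 (adjusted p = 0.064). Myb was not called without Control replicate 3 or 4 or So(d18:1) replicate 2, 3 or 4 (adjusted p = 0.0604 to 0.0773), and Cebpd was not called without Control replicate 1 or 2 or So(d18:1) replicate 1 or 2 (adjusted p = 0.0671 to 0.0809).

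Of 13 genes of the S100 family listed outside calprotectin, 7 were tested, 1 rose, none fell, and the median log2 fold change was 0.17. S100a10, the partner of annexin A2, rose from 53.7 ± 5.07 to 68.2 ± 7.38 CPM (log2 fold change 0.35, adjusted p = 0.013), and it was not called without So(d18:1) replicate 4 (adjusted p = 0.0513). S100a11, the highest of the 7 per kilobase, had a log2 fold change of 0.17 (adjusted p = 0.0541) and was called without So(d18:1) replicate 3 (adjusted p = 0.00797). S100a5 was at 0 counts in all 8 libraries.

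For inhibitors, receptors and partners of the proteins, 14 genes were tested, 1 rose and 1 fell, with a median log2 fold change of 0.0059. Emb, which encodes embigin, a receptor for S100A8, rose from 378 ± 25.0 to 565 ± 24.7 CPM (log2 fold change 0.58, adjusted p = 1.1e-07). Tlr4, a receptor for calprotectin, had a log2 fold change of 0.052 (adjusted p = 0.533) and Ager one of 0.057 (adjusted p = 0.879). The gene that fell was Cp, ceruloplasmin, a ferroxidase that binds lactoferrin and myeloperoxidase, from 41.9 ± 9.10 to 22.9 ± 4.12 CPM (log2 fold change -0.88, adjusted p = 0.0389), a call that was lost without Control replicate 1 or 4 or any single So(d18:1) library (adjusted p = 0.0501 to 0.112). Cstb, the cystatin B gene and the highest of the list, had a log2 fold change of -0.16 (adjusted p = 0.0774) and was called without So(d18:1) replicate 4 (adjusted p = 0.0474). The number called ranged from 1, without Control replicate 4 or So(d18:1) replicate 1 or 2, to 4, without Control replicate 3. Tlr4 and Ager were named after their values were seen.

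Inflammatory genes that often accompany calprotectin and Lcn2 were tested for 20 genes, of which 3 rose and 2 fell, with a median log2 fold change of 0.037. Acod1, the enzyme that makes itaconate, rose from 14.04 ± 1.10 to 21.3 ± 1.94 CPM (log2 fold change 0.60, adjusted p = 7.5e-05), beside Clec4e and Clec4d above. The chemokine gene Ccl3 fell from 23.1 ± 3.11 to 15.5 ± 1.16 CPM (log2 fold change -0.58, adjusted p = 2.8e-04). The scavenger receptor gene Marco fell from 2.58 ± 1.27 to 1.24 ± 0.295 CPM (log2 fold change -1.04, adjusted p = 0.0466). Il1b, the interleukin-1β gene, named after its values were seen, was at 20.1 to 26.3 CPM in Control and 23.7 to 26.4 CPM in So(d18:1) (log2 fold change 0.11, adjusted p = 0.45). Some genes of this list had too few counts to be tested, and they too were named after their values were seen. Il6 had 0 to 5 counts in a library, Nos2 0 to 8 and Cxcl3 0 to 10, and Saa1 and Saa2 had 0 in all 8. Whether the cultures had been given an inflammatory stimulus was not tested.

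**Figure D4:**
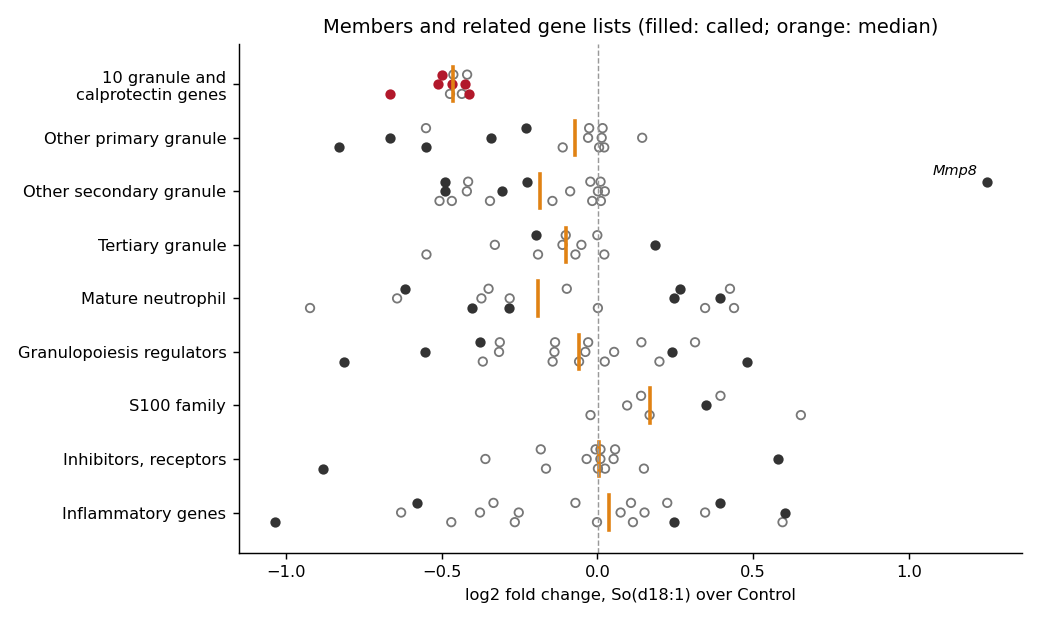
The log2 fold change with So(d18:1) is drawn for the 10 granule and calprotectin genes (top) and for the tested genes of 8 related lists, filled where the adjusted p was under 0.05, with the median of each list in orange and the median of all genes tested as a dashed line. The 10 genes, which were chosen on this same difference, lie between -0.66 and -0.41. The medians of the 8 lists drawn lie between -0.19 and 0.17, and Mmp8 stands apart at 1.25. Single genes of these lists also lie within and below the range of the 10 genes.

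Markers of other cells that a marrow culture can hold were read beside these results. Of 8 tested markers of mature neutrophils, 3 fell and 1 rose, with a median log2 fold change of -0.37. Their summed level was 456 to 489 CPM in Control and 448 to 499 CPM in So(d18:1), most of it from Csf3r. This sum joins opposite changes. Mmp8, the 1 that rose, went from 59.2 ± 7.42 to 140.6 ± 12.9 CPM. Csf3r fell from 358 ± 14.2 to 294 ± 28.0 CPM, and the others that fell were Padi4 and Cxcr2. Similar sums therefore do not show that these markers were unchanged. Ly6g, the surface antigen that defines mouse neutrophils, was scarce at 1.73 to 2.65 CPM in Control and 0.988 to 1.72 CPM in So(d18:1) (adjusted p = 0.0803). Of 10 markers of granulocyte and macrophage progenitors, 4 fell and none rose, with a median log2 fold change of -0.39. Across Control libraries their sum was 499 to 518 CPM, against 471 to 527 CPM with So(d18:1). Most of this sum came from Igsf6, which was not called (log2 fold change 0.081, adjusted p = 0.291). The overlap of the sums therefore does not show that the other progenitor markers were unchanged. Of the 10 markers, 7 had a log2 fold change below 0. The 4 that fell were Ms4a3, Cebpe and Myb, described above, and the cell cycle kinase gene Cdk6 (log2 fold change -0.53, adjusted p = 9.8e-05). Kit, the stem cell factor receptor, was not called (log2 fold change -0.41, adjusted p = 0.0963). Besides Igsf6, Flt3 (log2 fold change 0.51, adjusted p = 0.126) and Cd34 (log2 fold change 0.20, adjusted p = 0.611) lay above 0 and were not called.

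Monocyte markers fell in 5 of 10 genes and rose in 1, the proteoglycan gene Vcan, with a median log2 fold change of -0.35 and sums of 3082 to 3422 CPM in Control against 2753 to 2916 CPM in So(d18:1), led per kilobase by F13a1. Eosinophil markers fell in 3 of 6 genes, Prg2, Siglecf and Ccr3, with a median of -0.62 and sums of 31.4 to 44.0 CPM against 23.4 to 26.8 CPM. Macrophage markers, led by the complement gene C1qb, fell in 2 of 10, Cd68 and Mertk, with a median of -0.14 and sums of 13279.6 to 13986 CPM against 12234 to 13457 CPM. B cell markers, led by Cd79b, fell in 1 of 5, Pax5, with a median of -0.92 and sums of 16.8 to 19.8 CPM against 13.5 to 17.3 CPM. Dendritic cell and stromal markers, led by Siglech and Col1a1, had no gene called among 5 tested each, with medians of -0.30 and -0.23 and sums of 6.44 to 8.70 against 7.06 to 8.96 CPM and of 6.20 to 10.0 against 5.66 to 8.32 CPM.

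Mast cell and basophil markers, of which Mcpt4, Cma1 and Tpsb2 were at 0 counts in all 8 libraries, summed to 0.547 to 1.23 CPM in Control and 0.588 to 1.23 CPM in So(d18:1), too low for any to be tested. T and NK cell markers summed to 0.0824 to 0.288 and 0.0775 to 0.280 CPM, and erythroid markers to 0.994 to 1.35 and 0.672 to 1.45 CPM, again with none tested. The highest genes of these 3 lists were Prss34, Trac and Hbb-bs. Mmp8, Ms4a3, Csf3r and several other genes stand in more than 1 list, so the lists are not independent of each other. Genes named from these marker lists other than the highest of a list, and Nkg7, Hp, Cxcr2, Cebpe and Marco, were named after their values were seen. The part of other cell types in the lower level of the 10 genes was not tested.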

How the data were processed

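RNA-seq of 4 Control and 4 So(d18:1) libraries of BMDM was analysed from 1 table. The values the authors deposited are raw counts per Ensembl gene, not normalized. Per the submitters' processing notes, reads were trimmed with Trim Galore 0.6.7, aligned with HISAT2 2.2.1 to mm10 and counted with featureCounts 2.0.1. Strand setting, treatment of multiply mapped reads and annotation release are not given in the sources used here, so reads of overlapping genes on opposite strands could be shared.

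The counts were fitted with edgeR 4.0.16 in R 4.3.3 (filterByExpr, TMM, robust quasi-likelihood F test, Benjamini-Hochberg adjustment over 14514 genes, threshold 0.05) and limma 3.58.1. DESeq2 1.42.0, limma-voom, edgeR's exact and likelihood ratio tests, other scalings and filters, a fold change threshold of 1.5, counts drawn down to the smallest library, a replicate block and the removal of each library in turn were the alternatives. The model was tested on simulated data. Symbols came from GENCODE M21 (GRCm38, the build called mm10), which named 52081 of 55357 identifiers, and counts without a symbol were 0.169% to 0.325% of a library. CPM were scaled by TMM, RPKM used the deposited gene length, and log2 CPM a prior count of 2. The SE of a log2 fold change was its size over the square root of the F statistic. Totals of 17748397 to 26088609 counts set the depth, and 4 libraries per group limit the precision. Replicates differed by more than counting noise (chi-square per gene 2.75 to 11.9), so none was a copy. Promoters came from RefSeq (GRCm38.p6). Python 3.11.15 and matplotlib 3.10.9 were used for the figures.

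The 10 genes and all gene lists were chosen with earlier results of these data known. Named besides the 10 genes were, from each list, up to 4 genes with the smallest p among those called and the highest gene by RPKM, the highest gene of each marker list, markers at 0 counts, genes with the nearest profiles, and genes within 100 kb. Any other gene is marked as named with its values already seen. A called gene of the primary granule list is not reported here.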

Additional observations from a re-analysis of the deposited data

Results flagged for a closer look

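Each group of 4 libraries was searched for a library far from the other 3, over the 10 genes and the 3 class sums, which made 26 groups. Of these, 1 stood out. Ctsg in Control replicate 2 was at 2.7419 log2 CPM while the other Control libraries were at 3.12 to 3.17, and the gap was 0.901 of the range of the group, above the 95% critical value of Dixon's test for 4 values. About 1 in 20 groups passes it by chance. Control replicate 2 was also the lowest Control library for 9 of the 10 genes.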

How the results depend on the processing

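Each of the 10 genes kept a negative log2 fold change under all 19 alternatives, and the log2 ratios of the 3 class sums stayed negative under the 11 alternatives computed for them (3 scalings or transformations and 8 left-out libraries). Under an unadjusted p under 0.05 with a fold change of at least 1.5, 564 of all genes tested and 1 of the 10 genes were called, against 1298 and 6. The 10 genes were all called by edgeR's exact test (10, with 1525 of all genes), its likelihood ratio test (10, with 1565), the Wald test of DESeq2 (10, with 1495) and limma-voom (10, with 1309), and the cause of the difference was not tested. Without 1 library, between 815 and 1370 genes and between 3 and 9 of the 10 were called. Lamp1 changed sign, with values from -0.0023 to 0.0329 without 1 library, and so did Cd14, from -0.0225 to 0.0564, both turning negative without So(d18:1) replicate 4. Same-numbered libraries deviated together with correlations of -0.0035 to 0.1002, and differently numbered ones with correlations of -0.1362 to 0.1071. These few correlations cannot decide whether the replicate numbers pair the libraries, and the fit of all 8 libraries used no pairing. With the replicate block 1784 genes and 9 of the 10 were called. Low counts limit Ctsg, with 80 counts in 1 library.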
